A study of Sus scrofa with 4 samples.

Results

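The SR splicing factors are the 10 genes SRSF1 to SRSF7 and SRSF9 to SRSF11, taken by gene symbol from a deposited table of 20491 pig genes. All 10 were in the table and all 10 passed the filter on low counts, among 15552 genes tested. RNA sequencing was done on granulosa cells, which are the somatic cells around the oocyte, from follicles of the domestic pig, Sus scrofa. The series holds 2 libraries of a transfection negative control and 2 of cells transfected to interfere with YTHDF2, called siYTHDF2 here, and its title concerns BDNF-stimulated proliferation. The labels name no BDNF treatment, siRNA sequence, time, animal age or breed, and nothing tells whether replicates were separate cultures or animals, so every p-value refers to library-to-library spread that may be technical.

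SR proteins carry one or a pair of RNA recognition motifs and a tail rich in arginine and serine. They bind exonic enhancer sequences in pre-mRNA, recruit the U1 snRNP and U2AF to nearby splice sites, and are moved and switched by kinases that phosphorylate the tail. Several are controlled through their own transcripts, since SR genes contain conserved poison exons whose inclusion sends the mRNA to nonsense-mediated decay. YTHDF2 binds N6-methyladenosine (m6A) in cytoplasmic mRNA and promotes its decay, and in human cells the nuclear m6A reader YTHDC1 interacts with SRSF3 and SRSF10 to select exons.

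None of the 10 SR factor transcripts changed past the test when YTHDF2 was lowered, and the estimates lay between -0.10 and 0.20 on the log2 scale. SRSF9 and SRSF5 were the highest, at 1.15 and 1.12 times the control level, and SRSF2 the lowest, at 0.933 times. The count was 0 of 10 called in edgeR's quasi-likelihood test at a Benjamini-Hochberg adjusted p under 0.05 and 0 of 10 in DESeq2, with 2 of 10 (SRSF9 and SRSF5) at an unadjusted p under 0.05 in edgeR. Among all genes tested 19.6% were called, 33.1% had an unadjusted p under 0.05, and 16.1% had such a p and a higher level with siYTHDF2. Among the 2835 genes with a mean CPM at least that of SRSF2, the lowest member, a limit set after the values were seen, 35.8% were called and 52.1% had an unadjusted p under 0.05. The median absolute log2 fold change was 0.08 for the members, 0.25 for all genes tested and 0.17 at the members' level of expression.

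YTHDF2 itself checks the labels. Its CPM (library-size-scaled counts, with TMM factors) was 69.5 and 62.1 in control replicates 1 and 2, and 23.6 and 23.2 in siYTHDF2 replicates 1 and 2. The 2 groups lay far apart, with a log2 fold change of -1.49 (SE 0.09, edgeR adjusted p = 1.49e-05). In the deposited table the gene spans chromosome 6 from 85716983 to 85726473. Between its end and the nearer edge of SRSF4, which is on the minus strand, lie 338315 bases. Total counts were 47209177 to 54841851 per library.

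Defining granulosa markers differed in level. FSHR, the follicle-stimulating hormone receptor, had counts of 484 to 622 per library, whereas CYP19A1, aromatase, had counts of 0, 11, 0 and 6. Of 11 tested granulosa markers 2 were lower and none higher, where 10.6% of all genes tested were called lower and 9.05% higher. CYP11A1 was at 61.2 and 71.9 CPM in the controls against 32.0 and 24.4 CPM with siYTHDF2 (edgeR adjusted p = 0.000316). INHBB, the other one called lower, was at 31.8 and 29.0 CPM against 19.2 and 18.4 CPM (edgeR adjusted p = 0.00213). Theca and stroma markers moved strongly with the groups, with 7 of 9 tested members lower and 1 higher. CYP17A1, the theca enzyme on this list of 10, was not found by symbol, and the other 9 genes are not specific to theca. The summed level of these 9 was 17507 to 17832 CPM in the controls against 8483 to 8751 CPM with siYTHDF2. ACTA2 carried most of that sum, at 12147.5 and 12801 CPM against 6639 and 6286 CPM. DES was the member called higher, at 52.2 and 58.6 CPM against 238.6 and 206.2 CPM. Among defining markers of other cells, the leukocyte gene PTPRC had counts of 0 to 7 and the epithelial gene EPCAM of 0 to 4. Other markers of these cells were not near 0. CD14, a leukocyte marker, had counts of 284 and 291 in the controls and 199 and 165 with siYTHDF2 (edgeR adjusted p = 0.101). KRT8, an epithelial marker, had 325 and 299 against 202 and 239 (edgeR adjusted p = 0.135). CD14 and KRT8 were the most abundant of their lists. Summed CPM in control and siYTHDF2 libraries was 14.03 to 14.86 against 13.0 to 13.7 for 4 endothelial markers, 7.06 to 7.96 against 5.33 to 6.03 for 4 leukocyte markers and 7.62 to 8.03 against 5.06 to 5.62 for 5 epithelial markers. PECAM1 carried most of the endothelial sum, at 13.7 and 14.5 CPM against 12.4 and 11.9 CPM. VWF, another endothelial marker, had counts of 0 and 0 in the controls and 24 and 30 with siYTHDF2 and was called higher (edgeR adjusted p = 0.0118). KDR had counts of 18 and 13 against 27 and 34 and was not called (edgeR adjusted p = 0.352). The sum over 3 oocyte markers was 9.99 to 11.1 against 10.3 to 11.8 CPM. GDF9 carried almost all of it, at 9.72 and 10.99 CPM against 10.1 and 11.3 CPM. BMP15 had counts of 0 to 4 and DDX4 of 2 to 30 over the libraries. The part of these shifts in the SR factor values was not tested. In bulk RNA, fewer cells of a type and less RNA per cell cannot be told apart.

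**Figure D1:**
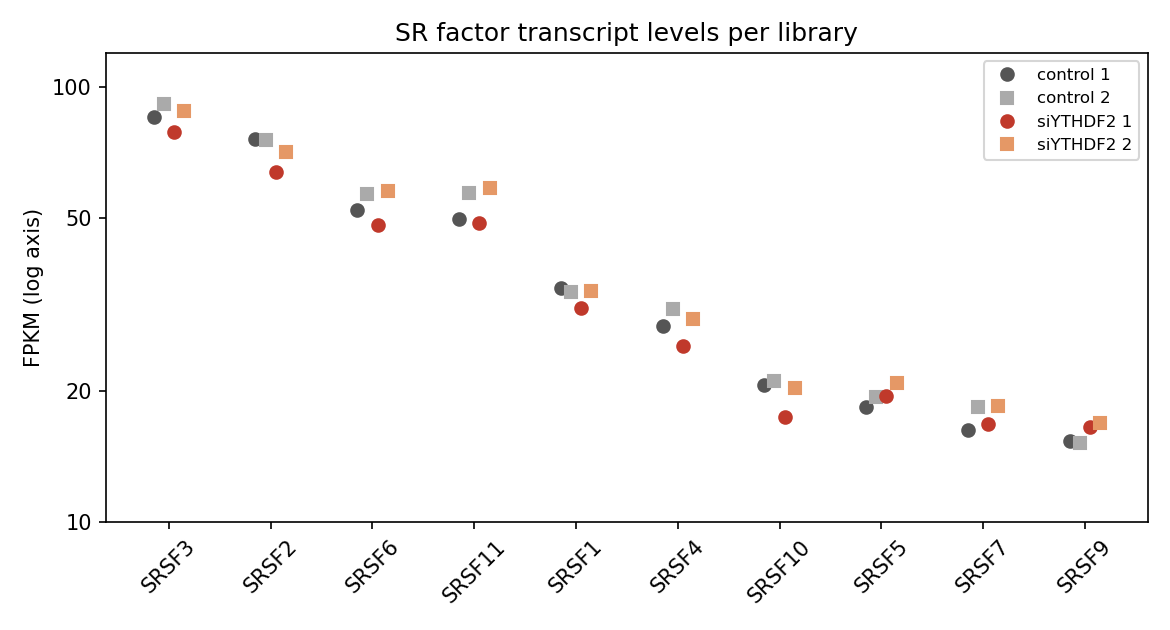
FPKM of each SR factor (y axis, log scale) in each of the 4 libraries (grey, control; red and orange, siYTHDF2; circles, replicate 1; squares, replicate 2), ordered by mean level. SRSF3 and SRSF2 stand highest, SRSF10, SRSF5, SRSF7 and SRSF9 lie close together at 15.2 to 21.1 FPKM, and the groups differ less than the genes do.

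The SR factors were abundant transcripts. In FPKM, the authors' value per length, SRSF3 lay at 79.1 to 91.3 over the 4 libraries and ranked 487 among the 20491 genes by mean. SRSF2 followed at 63.8 to 76.0 FPKM, without overlap with SRSF3. The order of the genes rests on the lengths the authors divided by. The length implied by a gene's counts, total count and FPKM was averaged over the 4 libraries. It was 8183 bases for SRSF1, more than the 6249 bases its entry spans, and 1072 bases for SRSF2, near the 1052 of its entry. This mean is raised by siYTHDF2 replicate 1, whose FPKM were low beside its counts. In CPM, which is not per length, SRSF1 was second to SRSF3 among the members and SRSF2 last. SRSF6 at 48.3 to 57.6 FPKM and SRSF11 at 48.8 to 58.6 FPKM overlapped, SRSF6 being the higher in 1 of 4 libraries, and neither reached SRSF2.

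The lower members were SRSF1 at 31.0 to 34.5 FPKM and SRSF4 at 25.4 to 30.8 FPKM, whose ranges just failed to meet. Below them SRSF10 lay at 17.5 to 21.1, SRSF5 at 18.4 to 20.9, SRSF7 at 16.3 to 18.5 and SRSF9 at 15.2 to 16.9 FPKM. The ranges overlapped between neighbours, but SRSF5 was above SRSF7 and SRSF7 above SRSF9 in 4 of 4 libraries. SRSF10 was above SRSF5 in both controls and below it in both siYTHDF2 libraries. FPKM is scaled by library and not by TMM, and siYTHDF2 replicate 1 had the lowest FPKM in 7 of the 10 genes. Its summed FPKM over the 10 genes was 366.8, against 396.7 and 419.9 in the controls and 415.6 in siYTHDF2 replicate 2. The TMM factors were only 0.986 to 1.018. Yet that library held the highest share of counts on these genes, and how the authors scaled each library for FPKM is not known. The share of each library's counts that fell on the 10 genes was 0.157% and 0.163% in the controls and 0.169% and 0.166% with siYTHDF2. Their summed level was 1592 and 1658 CPM against 1676 and 1632 CPM, and the groups overlapped.

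Within the summed FPKM of the family, SRSF3 held 21.5% and 21.8% in the controls and 21.6% and 21.2% with siYTHDF2. SRSF2 held 19.2% and 18.0% in the controls and 17.4% and 17.1% with siYTHDF2, so both control shares were above both siYTHDF2 shares. SRSF9 went the other way, from 3.88% and 3.62% to 4.51% and 4.06%. These shares sum to a fixed whole, rest on the same lengths, and were not tested.

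The SR protein pair of SRSF1 and SRSF9 shares a layout, with a second, atypical RNA recognition motif. SRSF1, formerly ASF/SF2, is a shuttling factor that binds purine-rich enhancers and also acts in export, translation and decay. Its CPM was 276.5 and 267.2 in the controls and 279.5 and 264.8 with siYTHDF2. The siYTHDF2 libraries lay on either side of both controls, and the log2 fold change was 0.0016 (SE 0.06, edgeR adjusted p = 0.992, 95% interval -0.14 to 0.15). SRSF1 is on chromosome 12 from 34275914 to 34282162, minus strand, with 4 transcript identifiers, as the deposited table gives it.

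SRSF9, formerly SRp30c, regulates splice site choice and is drawn into nuclear stress bodies in human cells. Its CPM was 86.5 and 84.4 in the controls and 104.5 and 92.2 with siYTHDF2. Both siYTHDF2 libraries were above both controls, but siYTHDF2 replicate 1 stood well above replicate 2. The log2 fold change of 0.20 (SE 0.08, unadjusted p = 0.0308) did not pass over all genes (edgeR adjusted p = 0.109). It was 0.10 without siYTHDF2 replicate 1 and 0.29 without siYTHDF2 replicate 2, with an adjusted p of 0.604 and 0.0581.

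The SRSF9 entry, on chromosome 14 from 40419093 to 40434047, minus strand, overlaps GATC on the plus strand by 4536 bases. GATC encodes a subunit of the mitochondrial glutamyl-tRNA amidotransferase. No source used here gives whether counting used strand, so reads from the shared stretch cannot be told apart. GATC lay at 21.9 and 21.2 CPM in the controls and 24.7 and 21.9 CPM with siYTHDF2, with a log2 fold change of 0.11 (SE 0.11, edgeR adjusted p = 0.539). Its part in the SRSF9 value was not tested.

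Closest to SRSF9 in centred log2 CPM over the 4 libraries, among 12452 other tested genes with a symbol, were TCAIM (Euclidean distance 0.0099), PFKM (0.016) and TRIP13 (0.028). With 4 libraries and so many genes, close profiles are frequent. TRIP13, an ATPase that disassembles mitotic checkpoint complexes, lay at 64.6 and 62.6 CPM in the controls and 79.6 and 69.2 CPM with siYTHDF2. It was not called either (log2 fold change 0.23, SE 0.09, edgeR adjusted p = 0.0959).

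SRSF2, formerly SC35, is the classical marker of nuclear speckles and binds both C-rich and G-rich exonic elements. Its CPM was 79.9 and 78.5 in the controls and 75.3 and 72.5 with siYTHDF2. Both siYTHDF2 libraries were below both controls, by a small margin. The log2 fold change was -0.10 (SE 0.07, edgeR adjusted p = 0.372, 95% interval -0.26 to 0.06).

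The SRSF2 entry on chromosome 12 from 4800624 to 4801675, plus strand, shares 833 of its 1052 bases with the span of MFSD11, which runs on the minus strand. MFSD11 encodes a transporter-like membrane protein. It stood at 92.6 and 88.2 CPM in the controls and 73.7 and 84.6 CPM with siYTHDF2, with a log2 fold change of -0.19 (SE 0.08, edgeR adjusted p = 0.143). The low library of MFSD11 was siYTHDF2 replicate 1, whereas that of SRSF2 was siYTHDF2 replicate 2. The part of MFSD11 reads in the SRSF2 count was not tested.

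SRSF3 and SRSF7 are short SR proteins that bring mature mRNA to the export receptor NXF1, and SRSF7 differs by a zinc knuckle. SRSF3 had 307.3 and 324.8 CPM in the controls and 320.3 and 308.6 CPM with siYTHDF2. The siYTHDF2 values fell between the controls. Its log2 fold change was -0.0074 (SE 0.06, edgeR adjusted p = 0.958, 95% interval -0.15 to 0.14). It lies on chromosome 7 from 32289480 to 32298580, plus strand, and no other entry of the table overlaps it.

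SRSF7 had 114.0 and 126.7 CPM in the controls and 132.1 and 125.5 CPM with siYTHDF2. Control replicate 1 was the low library and the other 3 lay close together. The log2 fold change of 0.10 (SE 0.07, edgeR adjusted p = 0.407) came to 0.02 without control replicate 1 and 0.18 without control replicate 2. SRSF7, with 4 transcript identifiers, is on chromosome 3 from 101603707 to 101613237, plus strand.

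SRSF4, SRSF5 and SRSF6, formerly SRp75, SRp40 and SRp55, form a subgroup with a pair of RNA recognition motifs. SRSF5 is known as an early insulin-responsive and growth-responsive gene in rat liver. Its CPM was 104.7 and 109.1 in the controls and 124.5 and 115.7 with siYTHDF2. Both siYTHDF2 libraries were above both controls. The log2 fold change was 0.17 (SE 0.07, unadjusted p = 0.0395, edgeR adjusted p = 0.129, 95% interval 0.01 to 0.32). It was 0.11 without siYTHDF2 replicate 1 and 0.22 without siYTHDF2 replicate 2, with an adjusted p of 0.561 and 0.150.

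SRSF5 lies on chromosome 7 from 93393426 to 93403011, plus strand. Its span overlaps that of SLC10A1, which encodes a bile acid cotransporter of the liver, on the minus strand by 5404 bases. SLC10A1 lay at 12.1 and 14.2 CPM in the controls and 12.8 and 12.0 CPM with siYTHDF2, all within one range (log2 fold change -0.09, SE 0.14, edgeR adjusted p = 0.719). The part of shared reads in either value was not tested.

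SRSF4 stood at 83.2 and 89.6 CPM in the controls and 84.1 and 83.8 CPM with siYTHDF2. Only control replicate 2 stood apart from the other 3 libraries, and the log2 fold change was -0.04 (SE 0.07, edgeR adjusted p = 0.754). SRSF6, which also controls tau and keratinocyte splicing, had 233.3 and 251.5 CPM in the controls and 243.0 and 250.2 CPM with siYTHDF2. The siYTHDF2 values lay between the controls, with a log2 fold change of 0.02 (SE 0.07, edgeR adjusted p = 0.849). SRSF4 is on chromosome 6 from 86064789 to 86092843, minus strand, and SRSF6 on chromosome 17 from 46119409 to 46125126, plus strand.

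SRSF10 and SRSF11 are the divergent members. SRSF10, formerly SRp38, becomes a general splicing repressor when it is dephosphorylated after heat shock or in mitosis. Its CPM was 166.2 and 168.0 in the controls and 158.1 and 158.6 with siYTHDF2. The replicates were nearly equal and both siYTHDF2 libraries lay below both controls, yet the difference was small, with a log2 fold change of -0.08 (SE 0.06, edgeR adjusted p = 0.436, 95% interval -0.22 to 0.06). It lies on chromosome 6 from 81727901 to 81741496, minus strand.

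SRSF11, formerly p54, had 140.4 and 158.5 CPM in the controls and 154.4 and 160.1 CPM with siYTHDF2. Control replicate 1 was the low library and the groups overlapped. The log2 fold change of 0.07 (SE 0.08, edgeR adjusted p = 0.557) came to -0.01 without control replicate 1 and 0.16 without control replicate 2. SRSF11 lies on chromosome 6 from 142621924 to 142642073, minus strand. It was the one member without the KEGG Spliceosome annotation, which 9 of the 10 carried, while all 10 were annotated to nuclear specks.

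**Figure D2:**
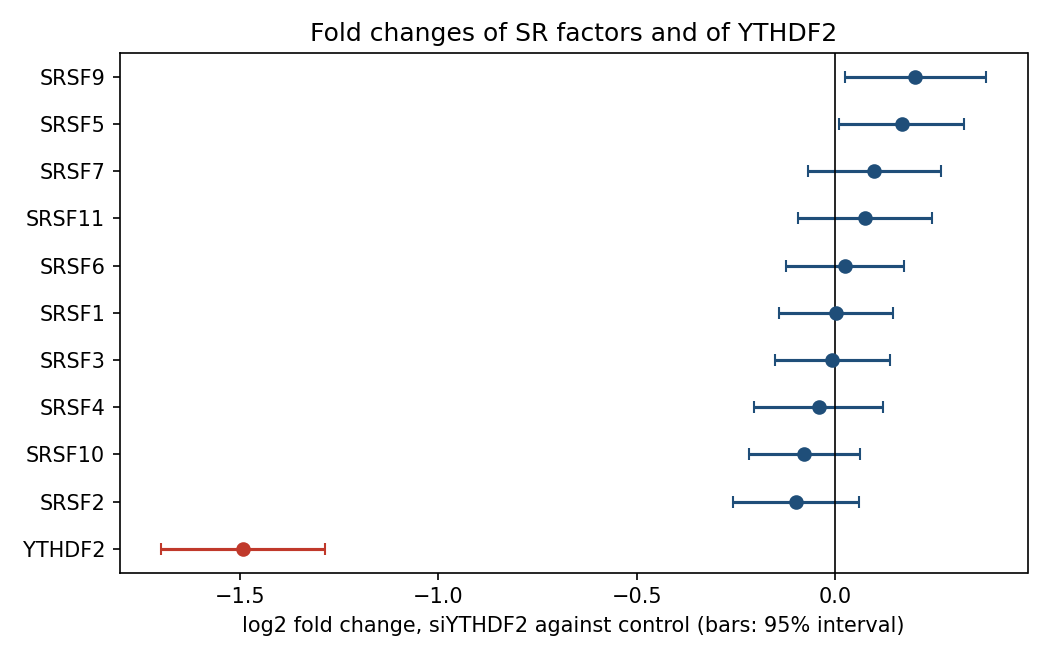
Log2 fold change of siYTHDF2 against control (x axis) for the 10 SR factors (blue) and YTHDF2 (red), with bars for the 95% interval from edgeR's quasi-likelihood fit. The SR intervals run from -0.26 to 0.38 at the outermost, while that of YTHDF2 runs from -1.70 to -1.29.

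The intervals bound what these libraries leave possible. Over the 10 genes the lowest bound was 0.836 times the control level, for SRSF2, and the highest 1.30 times, for SRSF9, with intervals at the 95% level not adjusted for their number. A 2-fold change in either direction therefore lay outside every one of the 10 intervals. Smaller changes did not, and a missed threshold does not show equal levels. The standard errors of the members, 0.06 to 0.08, were smaller than the median of 0.13 over all genes tested and close to the 0.07 at the members' level of expression.

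Groups did not overlap in CPM for 4 of the 10 members, SRSF9 and SRSF5 higher and SRSF2 and SRSF10 lower, against 60.0% of all genes tested (30.1% higher and 30.0% lower) and 72.7% at the members' level of expression. In the SR family, replicate 2 minus replicate 1 had a median absolute log2 size of 0.07 in the controls and 0.05 with siYTHDF2. It was 0.08 and 0.07 at the members' level of expression and 0.15 and 0.14 over all genes tested. The members' median absolute fold change of 0.08 compares means of 2 libraries and not single libraries, so these sizes are unlike measures. Replicate 2 was the higher control in 7 of 10 genes and the higher siYTHDF2 library in 3 of 10. The median signed difference was 0.070 and -0.055 for the members, against 0.0081 and 0.0006 over all genes tested.

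**Figure D3:**
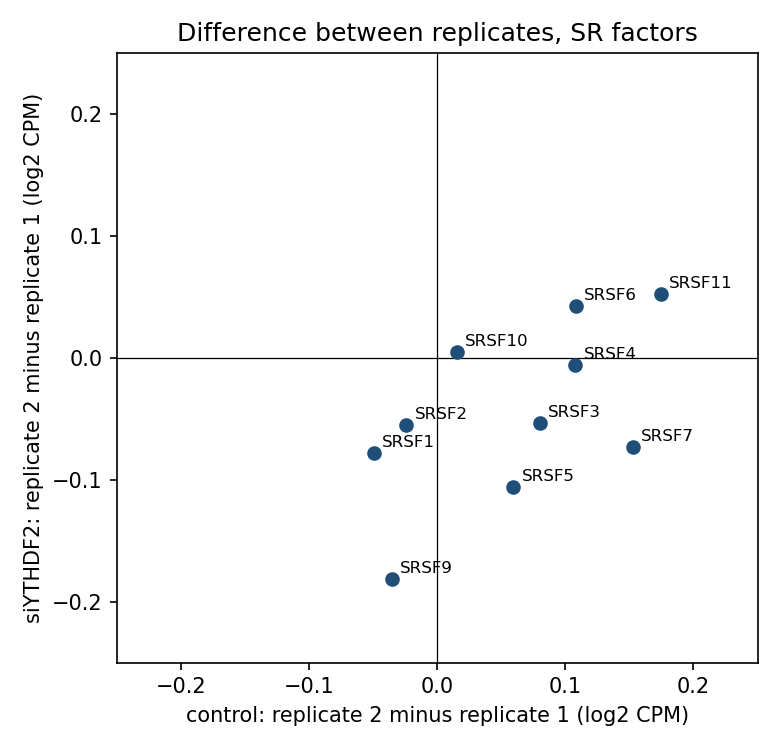
Difference in log2 CPM between replicate 2 and replicate 1 of each SR factor, in the controls (x axis) and with siYTHDF2 (y axis), 1 point per gene. SRSF11 and SRSF7 differed most between the controls, at 0.17 and 0.15, and SRSF9 most between the siYTHDF2 libraries, at -0.18.

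Beyond the 10 genes, SRSF12, a low-abundance relative of SRSF10, had 5.32 and 5.24 CPM in the controls and 7.16 and 7.995 CPM with siYTHDF2. Its log2 fold change of 0.52 (SE 0.17) was larger than that of any of the 10 but did not pass (edgeR adjusted p = 0.0606). SRSF8 was not analysed here. Among 20 tested SR-related and SR-like regulators, 1 was called higher and 2 lower, where 9.05% of all genes tested were called higher and 10.6% lower. The list had a median log2 fold change of 0.06 against 0.00069 for all genes tested. PNN, a speckle protein tied to the exon junction complex, rose from 126.5 and 132.0 to 168.7 and 163.8 CPM (log2 fold change 0.36, SE 0.06, edgeR adjusted p = 0.00481). BCLAF1, an SR-related transcription and splicing factor, fell by 0.34 on the log2 scale (SE 0.06, edgeR adjusted p = 0.00677). NKTR, a cyclophilin with an SR tail, fell by 0.32 (edgeR adjusted p = 0.0343), a call lost without control replicate 1 (adjusted p = 0.161) or siYTHDF2 replicate 1 (adjusted p = 0.181). Without control replicate 2 the counts were 3 higher and 3 lower, and without each of the other 3 libraries 1 higher and 1 or 2 lower. DESeq2 called 2 higher and 2 lower.

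Kinases, phosphatases and importers that act on SR proteins had calls both ways, with 4 higher and 2 lower of 14. Among all genes tested 9.05% were called higher and 10.6% lower. The median log2 fold change of the list was 0.13. TNPO3, the importin that carries phosphorylated SR proteins into the nucleus, rose from 191.6 and 199.3 CPM to 265.2 and 268.7 CPM (log2 fold change 0.45, SE 0.06, edgeR adjusted p = 0.00135). TNPO1, the importin of hnRNP proteins placed on the same list, rose by 0.32 (edgeR adjusted p = 0.00897). The kinase CLK3 rose by 0.42 (edgeR adjusted p = 0.0288) and DYRK1B fell by 0.81 (edgeR adjusted p = 0.0157). SRPK1, the main cytoplasmic SR kinase, was not called, at 131.2 and 133.5 CPM against 139.0 and 141.3 CPM, chosen after its values were seen. The list had 2 higher members without control replicate 1, 3 without control replicate 2, 1 without siYTHDF2 replicate 1 and 2 without siYTHDF2 replicate 2, and 0 or 1 lower in each case. TNPO1, CLK3 and DYRK1B each lost their call without siYTHDF2 replicate 1 (adjusted p = 0.0509, 0.0542 and 0.0649). CLK3 also lost it without control replicate 1 (adjusted p = 0.131) or siYTHDF2 replicate 2 (adjusted p = 0.106), and DYRK1B without control replicate 2 (adjusted p = 0.0531). TNPO3 kept its call without each single library.

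In the core machinery that SR proteins recruit, fold changes were small and mostly positive. Of 23 tested U1 and U2 snRNP and splice site factors, 5 were higher and none lower, 22 had a positive fold change, and the median was 0.20. Calls over all genes tested were 9.05% higher and 10.6% lower. SNRPD1, an Sm core protein, had a log2 fold change of 0.45 (SE 0.10, edgeR adjusted p = 0.0157), and U2AF1, the small subunit that reads the 3′ splice site, 0.29 (SE 0.08, edgeR adjusted p = 0.0346). The higher count was 1 without control replicate 1 and 0 without siYTHDF2 replicate 1, but 8 without either of the other 2 libraries. SNRPD1 lost its call without siYTHDF2 replicate 1 (adjusted p = 0.0955), and U2AF1 without it (adjusted p = 0.248) or control replicate 1 (adjusted p = 0.132). Of 27 tri-snRNP and PRP19 complex genes 5 were higher and none lower, 26 had a positive fold change, and the median was 0.17. SNRNP35, a protein of the minor spliceosome placed on this list, rose by 0.67 (SE 0.10, edgeR adjusted p = 0.00175) and PRPF38A, a tri-snRNP factor, by 0.53 (SE 0.09, edgeR adjusted p = 0.00477). That count was 3 without siYTHDF2 replicate 1, 9 without control replicate 2 and 8 without siYTHDF2 replicate 2. Positive fold changes numbered 6 of 10 for the SR factors and 7786 of 15552 for all genes tested.

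The hnRNP and PTB proteins, which often oppose SR proteins at exons, had 3 higher and 3 lower of 19 tested members. Their median log2 fold change was 0.05. The shares called over all genes tested were 9.05% higher and 10.6% lower. PTBP3 fell from 369.9 and 350.0 CPM to 230.0 and 251.6 CPM (log2 fold change -0.58, SE 0.07, edgeR adjusted p = 0.000652), and PTBP1 fell by 0.27 (edgeR adjusted p = 0.0141). Their paralog PTBP2, the form best known from neurons, rose from 23.4 and 30.0 CPM to 41.3 and 41.7 CPM (log2 fold change 0.64, SE 0.12, edgeR adjusted p = 0.00705). The PTBP1 call was lost without control replicate 1 (adjusted p = 0.0663) or siYTHDF2 replicate 1 (adjusted p = 0.0681), and the list had 1 call in each direction without either of these libraries and 2 in each without either of the others. Other alternative splicing regulators had 1 higher and 2 lower of 23, with a median of 0.04. MBNL2, a muscleblind protein, fell by 0.23 (edgeR adjusted p = 0.0415) and KHDRBS3, a STAR family factor, by 0.36 (edgeR adjusted p = 0.0273). TIAL1, which helps the U1 snRNP to bind weak 5′ splice sites, rose from 83.5 and 84.6 CPM to 98.2 and 101.1 CPM (log2 fold change 0.25, edgeR adjusted p = 0.0326). All 3 calls were lost in each fit without a single library, where the adjusted p of TIAL1 was 0.0760 to 0.153.

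Export genes that meet SR proteins after splicing also had calls both ways. Of 15 export genes 3 were higher and 1 lower, with a median log2 fold change of 0.12. Beside them, 9.05% of all genes tested were called higher and 10.6% lower. NXT2, a cofactor of the NXF1 export receptor, fell from 68.7 and 82.8 CPM to 30.5 and 28.8 CPM, a log2 fold change of -1.35 (SE 0.10, edgeR adjusted p = 4.95e-05). THOC6, a subunit of the THO complex, rose by 0.97 (SE 0.14) and DDX39A, an export helicase, by 0.60 (SE 0.09, edgeR adjusted p = 0.00162). NXF1 lay at 44.8 and 46.3 CPM against 40.6 and 41.9 CPM with siYTHDF2 (edgeR adjusted p = 0.271), and YTHDC1 at 116.9 and 123.6 against 121.0 and 116.8 CPM (edgeR adjusted p = 0.906), both chosen after their values were seen. Of the 12 exon junction complex and nonsense-mediated decay genes reported here 3 were higher, and the median over these 12 was 0.15. MAGOH, a core subunit of the junction complex, rose by 0.64 (SE 0.10, edgeR adjusted p = 0.00217). The export list had 1 lower member without each single library, and 2 higher without control replicate 1 or siYTHDF2 replicate 1, 5 without control replicate 2 and 4 without siYTHDF2 replicate 2. The junction and decay list had 1 higher without siYTHDF2 replicate 1, 2 without control replicate 1 and 4 without either of the others.

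**Figure D4:**
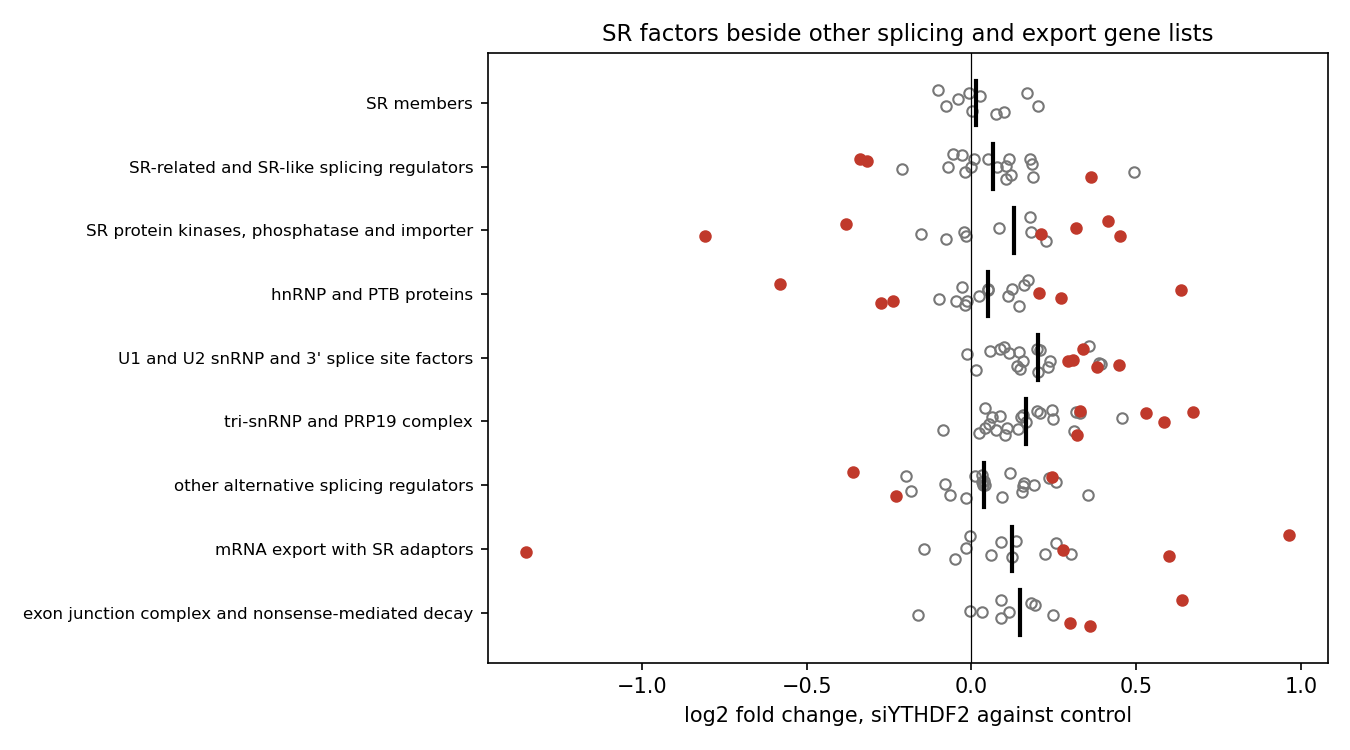
Log2 fold change of siYTHDF2 against control (x axis) for each tested gene of 9 lists (y axis, points spread vertically for visibility). Filled red points passed an adjusted p under 0.05, open points did not, and black bars mark list medians. The SR factors, the shortest list, have no filled point and run from -0.10 to 0.20.

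In limma on log2(FPKM + 1), the calls of PNN, NKTR, TNPO3, TNPO1, CLK3, SNRPD1, U2AF1, PTBP1, MBNL2, KHDRBS3 and TIAL1 were lost, with an adjusted p from 0.0590 for TNPO3 to 0.549 for TIAL1. Those of BCLAF1, DYRK1B, PTBP3, PTBP2, SNRNP35, PRPF38A, NXT2, THOC6, DDX39A and MAGOH were not. Gene-level counts add up all transcripts of a gene. Poison exon inclusion, other isoform changes and the phosphorylation of SR proteins are not visible in them.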

How the data were processed

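The authors deposited 1 table with counts and FPKM values per gene and library, per the file headers. The submitters' processing notes name a mouse genome build and the labels' protocol speaks of retinas, although the gene identifiers are of the pig, so the aligner, build, annotation and strand use behind the values are taken as unknown (not given in the sources used here). Coordinates are those of the deposited table. Of 6435 identifiers without a symbol, 124 were named through a reference table of genes.

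Counts were tested with edgeR 4.0.16 (R 4.3.3) with TMM scaling, its own expression filter, robust quasi-likelihood fits on all 4 libraries and group as the only term. P-values were two-sided and Benjamini-Hochberg adjusted over 15552 genes, with a threshold of 0.05. Standard errors came from the F statistic. The fit was tested on simulated data. The planted fold changes there were larger than the members' estimates, so that test does not bear on changes of their size. Alternatives used DESeq2 1.42.0, limma 3.58.1 on log2(FPKM + 1) and log2(FPKM + 0.1) for genes with FPKM of at least 0.5 in 2 libraries, median ratio scaling, no filter, the replicate number as a block, and each library left out. A lone library is then assumed to vary like the other group.

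Replicates differed beyond counting noise (chi-square of 17.5 per degree of freedom in both groups), so every library stood as 1 sample. The members and lists were chosen with earlier results of these data known. Named are the 10 members, YTHDF2, up to 4 members of each list by smallest p and the 3 genes closest to the member with the smallest p. Outside this rule, SRPK1, NXF1, YTHDC1, the genes that overlap a member and the cell markers were named after their values were seen. Sequences were not used here, and 1 gene of the decay list is not reported here, so that list's count and median leave it out.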

Additional observations from a re-analysis of the deposited data

How the results depend on the processing

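No SR factor was called in either direction under DESeq2, either limma fit, median ratio scaling, no filter, the replicate block or any single library left out, and their smallest adjusted p in these was 0.0581 (SRSF9, without siYTHDF2 replicate 2). The members' median log2 fold change of 0.01 was -0.057 in limma on log2(FPKM + 1) and -0.058 on log2(FPKM + 0.1). The median of all genes in these fits was -0.044 and -0.055. The members' median ran from -0.020 without control replicate 1 to 0.055 without control replicate 2. In the 2 limma fits SRSF1 stood at -0.068 and -0.070 and SRSF6 at -0.045 and -0.046, opposite in sign to their edgeR values, and SRSF1 at -0.0021 with no filter on low counts. Leaving out single libraries gave -0.043 to 0.036 for SRSF1, -0.048 to 0.032 for SRSF3, -0.096 to 0.012 for SRSF4, -0.029 to 0.079 for SRSF6 and -0.012 to 0.16 for SRSF11. Over all genes, 1408 were higher and 1644 lower. The higher count was 495 and 494 in the 2 limma fits, beside 1326 and 1325 lower, and 791 to 1287 without single libraries, lowest without siYTHDF2 replicate 1 and 879 without control replicate 1.

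With the replicate number as a replicate block, 1020 genes were higher, 1361 lower and no SR factor called. Of the genes named in the report, the calls of PTBP1 (adjusted p = 0.0608), NKTR (0.0638), U2AF1 (0.0628), MBNL2 (0.115), KHDRBS3 (0.0621) and TIAL1 (0.0906) were not made with the block. Deviations of same-numbered libraries correlated at -0.0527 over all tested genes and at -0.263 over the 9092 genes with a mean CPM of at least 10, so the number is not shown to pair the samples. A crossed replicate block, added after seeing the data, called 1946 higher and 1996 lower genes, with 1 SR factor higher, SRSF5 (adjusted p = 0.0454).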
